A study of Mus musculus with 96 samples.

Results

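Kidney was compared with liver over all genes in 12 of the 96 libraries of a survey of mouse organs, 6 libraries from kidney and 6 from liver, chosen by the tissue named in the sample titles. The survey covered 16 tissues of wild-type mice and of mice lacking *Scx* (*Scx*-/-), the gene of scleraxis, a transcription factor of tendon and ligament cells. Each tissue and genotype was represented by 3 libraries of bulk RNA. The groups were wild-type kidney, *Scx*-/- kidney, wild-type liver and *Scx*-/- liver, all from mice aged 3 weeks and all taken as whole organs frozen at necropsy. Which part of *Scx* the allele lacks, the sex of the mice and whether both organs of a number came from the same mouse were not stated, so p-values measure the spread between these libraries. Genotype entered every comparison of the organs as a covariate.

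The kidney filters plasma in glomeruli and then recovers water, salts, sugar and amino acids along the nephron, a tube whose proximal tubule, loop of Henle, distal tubule and collecting duct carry different transporters. The liver is built mainly of hepatocytes, which secrete most plasma proteins and lipoproteins, make bile acids and urea, and oxidize drugs with cytochrome P450 enzymes. Both organs make glucose from lactate and amino acids, break down fructose and hold many mitochondria, and both depend on nuclear receptors of the HNF4 family.

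The kidney libraries held 242429 to 1015500 counts on genes and the liver libraries 245271 to 768443. Depth was unequal between genotypes and in opposite directions, with 672218 to 1015500 counts in wild-type and 242429 to 447350 in *Scx*-/- kidney, and 245271 to 481409 in wild-type and 580110 to 768443 in *Scx*-/- liver. In kidney 9024 to 12660 genes had a count, and in liver 7164 to 10159. A few genes took more of the liver libraries, where the 10 largest held 25.7 to 28.3% of counts, than of the kidney libraries, where they held 12.7 to 14.9%. Pearson's r of log2 counts per 1000000 (CPM) between libraries was 0.821 to 0.918 within kidney, 0.767 to 0.869 within liver and 0.64 to 0.765 between the organs. The labels were checked against 13 defining markers, of which 6 hepatocyte genes (*Alb*, *Ttr*, *Apoa2*, *Cps1*, *Serpinc1* and *Cyp2e1*) made up 10.2 to 13.9% of counts in liver and 0.00645 to 0.0338% in kidney, and the 7 nephron genes made up 1.06 to 1.28% in kidney and 0 to 0.00367% in liver. *Scx* itself had 7 and 3 counts in wild-type kidney replicates 1 and 2 and 0 in the other 10 libraries, too few to check the genotype in these organs. *Xist*, which is expressed from the inactive X chromosome of females, had at least 10 counts in replicates 1 and 3 of the wild-type and replicate 1 of the *Scx*-/- group in both organs, and 0 in the other 6 libraries.

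In all, 16608 genes had a count in at least 1 of the 12 libraries and were tested. Of these, 2587 (15.6%) passed the threshold, an adjusted p under 0.05 in edgeR's quasi-likelihood test (adjusted by Benjamini-Hochberg over all genes tested) with a change over 2-fold. Kidney was higher for 1565 genes (9.42%) and liver for 1022 (6.15%), with median log2 fold changes of 4.73 and -4.45. For 1578 genes (9.5%) the 6 kidney libraries did not overlap the 6 liver libraries, among them 863 of the genes higher in kidney and 601 of those higher in liver. All 6 liver libraries were at 0 for 588 of the genes higher in kidney, and all 6 kidney libraries for 282 of those higher in liver. For such genes a fold is given as a lower bound, set against a floor of 3 counts summed over the 6 libraries at 0. In bulk RNA, fewer cells of a type and less RNA per cell cannot be told apart. The split of calls depended on the scaling and on the libraries used. With the knockout libraries alone the majority turned, with 660 genes higher in kidney and 839 in liver, while with the wild-type libraries alone these were 856 and 721. Kidney took 60.5% of calls with TMM factors, the scaling used throughout, and 79.9% with library totals (3055 genes against 769), where the median log2 fold change of all genes was 1.11 in place of 0.59. Genes listed at 0 in every library included some that every cell uses, so a gene listed at 0 is not taken as not expressed.

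**Figure D1:**
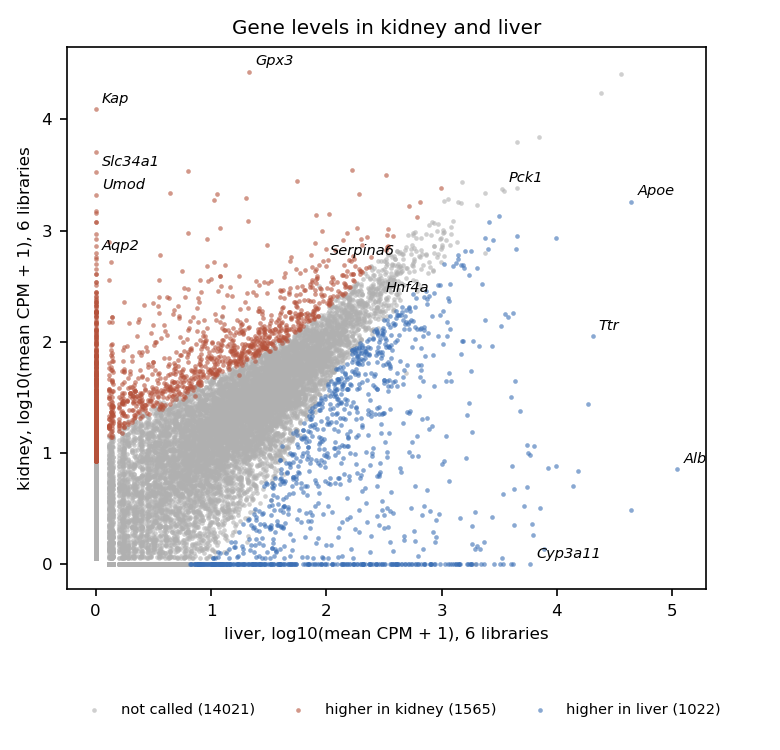
Mean level of each of 16608 genes in 6 liver libraries (x axis) and 6 kidney libraries (y axis), both as log10(mean CPM + 1), with TMM-scaled CPM. Red points passed the threshold as higher in kidney (1565), blue points as higher in liver (1022) and grey points did not pass (14021). The points on the left edge and the lower edge are genes at 0 in all libraries of 1 organ, such as Kap, Slc34a1 and Umod in liver and Cyp3a11 in kidney, while Pck1 and Hnf4a lie near the diagonal.

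Which part of each transcript was read is described differently in the sources, so levels are compared between organs and not between genes. Levels are given below in CPM as the lowest, the median and the highest of the 6 libraries of an organ, and log2 fold changes as kidney over liver ± SE from the test over all genes. Of 20 renal transcription factors, 18 were higher in kidney and 2 (*Pax2* and *Hoxb9*) did not pass, with a median log2 fold change of 7.59, or 4.84 with genes at 0 in liver set at their bound. *Pax8*, a factor that specifies the nephron lineage, had 25.3, 52.6 and 102 CPM in kidney and 0 in all liver libraries, which made it at least 39.9-fold higher. *Hoxd8*, a homeobox gene of trunk position, reached 95.1, 108 and 198 CPM in kidney and 0 in liver (at least 96.4-fold higher), and among all genes named as Hox genes 21 of 33 tested were higher in kidney and 0 in liver. *Tfcp2l1*, a factor of distal and collecting duct cells, had 156, 314 and 352 CPM in kidney against 0, 1.11 and 16 CPM in liver, a log2 fold change of 5.72 ± 0.47. Every kidney library lay above every liver library for these factors.

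Of 19 hepatic transcription factors tested, 15 were higher in liver and 4 (*Hnf4a*, *Foxa1* and *Tbx3* among them) did not pass, with a median log2 fold change of -2.23. *Creb3l3*, an activator of lipid and acute phase genes, had 272, 362 and 505 CPM in liver and 0 in kidney (at least 553-fold higher in liver), and *Foxa3*, a forkhead factor of endoderm, 93.5, 125 and 196 CPM in liver and 0 in kidney (at least 185-fold higher). *Nr1i3*, the nuclear receptor CAR that controls drug metabolism genes, had 13.8, 198 and 254 CPM in liver and 0 in kidney. Lower changes were seen for *Rxra*, the shared partner of many nuclear receptors, at -2.05 ± 0.34, and for *Cebpb* at -1.53 ± 0.28, whose call was lost with library totals. *Hnf4a*, a nuclear receptor needed by hepatocytes and by proximal tubule cells, had 188, 231 and 310.2 CPM in kidney and 147, 297 and 412 CPM in liver. The ranges overlapped and the log2 fold change was -0.26 ± 0.28 (adjusted p = 0.579), with a 95% interval inside -1 to 1.

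The promoters of 4 called genes are shown with the letters of the TATA box, a core element of many strongly used promoters: *Kap* and *Miox* from the kidney side and *Cyp2e1* and *Cyp3a11* from the liver side. Each is the RefSeq window of 300 bases in build GRCm38.p6 from 250 bases before to 50 after the gene's start, on the gene's strand, with TATAAA or its reverse complement TTTATA in capitals. The window of *Kap* is chr6:133853618-133853917 (minus strand), with the letters at -31.0 from the start, and that of *Miox* is chr15:89334223-89334522 (plus strand), with the letters at -40.0. For *Cyp2e1* it is chr7:140763569-140763868 (plus strand), with the letters at -31.0, and for *Cyp3a11* chr5:145879805-145880104 (minus strand), with the letters far upstream at -234.0.
Kap: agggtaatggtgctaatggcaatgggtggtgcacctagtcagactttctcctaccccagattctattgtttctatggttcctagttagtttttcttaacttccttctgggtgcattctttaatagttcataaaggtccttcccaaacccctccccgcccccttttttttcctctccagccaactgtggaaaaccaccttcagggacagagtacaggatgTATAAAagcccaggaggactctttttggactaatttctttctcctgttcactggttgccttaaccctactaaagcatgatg
Miox: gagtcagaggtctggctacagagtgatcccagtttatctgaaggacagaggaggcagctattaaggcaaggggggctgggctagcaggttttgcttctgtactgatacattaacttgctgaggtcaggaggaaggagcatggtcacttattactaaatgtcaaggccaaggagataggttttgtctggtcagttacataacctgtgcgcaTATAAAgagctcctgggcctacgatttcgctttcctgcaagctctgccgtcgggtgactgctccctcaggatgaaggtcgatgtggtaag
Cyp2e1: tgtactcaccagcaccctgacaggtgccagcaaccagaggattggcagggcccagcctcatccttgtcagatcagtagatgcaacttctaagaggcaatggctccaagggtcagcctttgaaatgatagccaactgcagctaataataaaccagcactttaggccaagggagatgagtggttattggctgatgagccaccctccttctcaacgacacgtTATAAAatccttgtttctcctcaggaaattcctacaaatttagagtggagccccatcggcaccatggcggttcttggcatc
Cyp3a11: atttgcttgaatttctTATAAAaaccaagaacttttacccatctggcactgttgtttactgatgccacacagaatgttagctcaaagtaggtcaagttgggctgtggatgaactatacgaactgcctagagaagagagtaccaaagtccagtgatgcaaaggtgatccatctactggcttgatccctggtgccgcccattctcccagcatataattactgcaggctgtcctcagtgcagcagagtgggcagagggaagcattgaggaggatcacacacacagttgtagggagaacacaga

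Over all 32851 promoters of this length 13.6% held these letters on either strand, and over the 14942 promoters of tested genes 8.49%. They were in 150 of 1537 promoters of genes higher in kidney (9.76%) and in 173 of 997 promoters of genes higher in liver (17.4%). Lists of 1 organ held few promoters each, and differences between lists were not tested. On the liver side the letters were in 16 of 33 promoters of drug metabolism genes and 7 of 24 of plasma proteins. For hepatic transcription factors these were 7 of 25, for apolipoproteins 6 of 18 and for bile acid genes 5 of 15. For urea cycle genes they were 4 of 20, and for coagulation and complement genes 3 of 26. On the kidney side they were 4 of 27 for the proximal tubule, 3 of 22 for the loop and distal tubule and 3 of 15 for the collecting duct. For renal endocrine genes they were 2 of 12, for renal transcription factors 1 of 19 and for glomerular genes 0 of 10. Among lists of shared tasks the letters were in 4 of 39 promoters of ribosomal proteins and 3 of 49 of the mitochondrial respiratory chain. They were in 2 of 17 of gluconeogenesis and fructose genes, 0 of 19 of fatty acid oxidation, 0 of 22 of lipid synthesis and 0 of 21 of cell proliferation. The windows of *Alb*, *Aqp2*, *Umod*, *Serpinc1* and *Apoa1* held none. A match describes the letters in this window and is not a bound site.

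The proximal tubule recovers most of the filtered sugar, phosphate, amino acids and protein. Of its 25 list members tested, 24 were higher in kidney, 0 in liver and 1 (*Slc17a3*, a urate and phosphate carrier) did not pass, and 15 were at 0 in every liver library. The list took 2.61 to 4.43% of counts in kidney libraries and 0.0228 to 0.0399% in liver libraries, and its median log2 fold change was 9.17, or 6.74 with genes at 0 at their bound. *Kap*, whose promoter is printed above, a kidney protein known for its regulation by androgen (chromosome 6, 133849855 to 133853667 of GRCm38), had 11873, 21237 and 19094 CPM in wild-type replicates 1, 2 and 3, 8497, 5724 and 7212 CPM in those of *Scx*-/- kidney and 0 in liver, at least 10760.0-fold higher in kidney. All 3 wild-type kidney libraries lay above the 3 *Scx*-/- libraries for *Kap*, and this order was not tested. *Slc34a1*, the sodium phosphate cotransporter, had 2874, 3479 and 3689 CPM in kidney and 0 in liver (at least 2656-fold higher). *Lrp2* (megalin), the receptor that takes up filtered protein, had 1210.3, 1415 and 1686 CPM in kidney and 0 in liver (at least 1135-fold higher). Its partners *Cubn* (cubilin) and *Amn* (amnionless) were at least 87-fold and at least 155-fold higher in kidney, so all 3 genes of the uptake complex were listed at 0 in liver. *Slc5a2*, the glucose cotransporter SGLT2, had 288, 613 and 879 CPM in kidney and 0 in liver (at least 523-fold higher), and *Miox*, which opens the ring of inositol, had 1885, 2068 and 2597 CPM in kidney and counts in 1 liver library (20.5 CPM). *Napsa*, an aspartic protease, had 2232, 3279 and 5077 CPM in kidney against 0 to 16 CPM in liver (9.19 ± 0.35).

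Carriers of organic ions differed in how strictly they followed the kidney. *Slc22a6* (OAT1), which brings organic anions such as drugs into the tubule cell, had 142, 204 and 670.2 CPM in kidney and 0 in liver (at least 250.4-fold higher). *Slc22a8* (OAT3) had 307, 501 and 587 CPM in kidney and 0 in liver except for 49 CPM in wild-type replicate 3, and its log2 fold change was 6.43 ± 1.01 (adjusted p = 0.00126). Weaker contrasts were found for *Aqp1*, a water channel also known from capillaries and red cells, at 421, 557 and 614 CPM against 120.3, 163 and 192 CPM (1.73 ± 0.27), for the bicarbonate carrier *Slc4a4* (3.32 ± 0.34) and for the cystine carrier subunit *Slc3a1* (3.74 ± 0.37). In all 3 the kidney libraries lay above the liver libraries.

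The loop of Henle and distal tubule dilute the urine and tune salt, calcium and magnesium. Of 20 members, 19 were higher in kidney and 1 (*Trpm6*, at 0 to 9.3 CPM in kidney) did not pass, and 15 were at 0 in all liver libraries, with a median log2 fold change of 8.42, or 6.51 with genes at 0 at their bound. *Umod*, the urinary protein uromodulin, had 1754, 2119 and 2317 CPM in kidney and 0 in liver (at least 1640.2-fold higher). *Slc12a1* (NKCC2), the salt carrier that loop diuretics block, had 869.6, 1564 and 1945 CPM and was at least 1062-fold higher. *Slc12a3* (NCC), its thiazide-sensitive relative, had 146, 237 and 304 CPM in kidney and 41.3 CPM in wild-type liver replicate 2 alone, a log2 fold change of 5.68 ± 0.55 (adjusted p = 9.54e-21). *Fxyd2*, the gamma subunit of the sodium pump, had 4511, 5125 and 5689.6 CPM in kidney and 0 in liver (at least 3976-fold higher), and *Atp1b1*, the beta subunit of that pump, 2983, 3492 and 4244 CPM against 105, 136 and 325 CPM (4.41 ± 0.21). *Egf*, a growth factor made by distal tubules, was at least 589.8-fold higher and *Klk1*, a kallikrein of the connecting tubule, had 1446, 1953 and 3136 CPM against 5.12, 9.65 and 16.2 CPM (7.66 ± 0.29).

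Collecting duct genes followed the same side, with 17 of 20 members higher in kidney, 0 in liver and 3 (*Aqp4*, *Elf5* and *Atp6v0d2*) not past the threshold. They held 0.209 to 0.337% of kidney counts. *Aqp2*, the water channel under vasopressin control, had 304, 603 and 878 CPM in kidney and 0 in liver (at least 475-fold higher), and *Avpr2*, the receptor for vasopressin, had 30.2, 46 and 144 CPM and was at least 46.7-fold higher. *Hsd11b2*, which inactivates glucocorticoid in aldosterone target cells, had 227, 297 and 483 CPM in kidney and 0 in liver (at least 243-fold higher). *Atp6v1b1*, the proton pump subunit of intercalated cells, was at least 50-fold higher and *Foxi1*, a factor of these cells, at least 33.2-fold higher. By symbol, 9 of 20 subunits of the vacuolar proton pump were higher in kidney and 0 in liver, and with library totals 15 were.

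Glomerular genes were the least complete renal list, with 6 of 15 members higher in kidney and 9 not past the threshold. *Podxl*, a surface protein of podocytes, had 51.1, 115 and 127 CPM in kidney against 0, 1.15 and 19.5 CPM in liver (4.34 ± 0.73), and *Clic5* 30.2, 69.1 and 107 CPM against 0, 0.889 and 16.3 CPM (3.77 ± 0.81). *Nphs1* (nephrin) had 20 counts in all over 4 kidney libraries and none in liver (adjusted p = 0.0827), and *Wt1* 35 counts in kidney and 1 in liver (adjusted p = 0.247), so at this depth a difference in these genes could not be shown. With the knockout libraries alone 3 of the 15 passed.

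Of 10 renal endocrine genes tested, 7 were higher in kidney and 3 (*Agtr1a*, *Nr3c2* and *Calca*) did not pass. *Ren1* (renin), the enzyme that opens the angiotensin cascade, had 27.6, 44.6 and 122 CPM in kidney and 0 in liver (at least 46.7-fold higher). *Vdr*, the receptor of vitamin D, had 161, 179 and 246 CPM in kidney and 0 in liver (at least 137-fold higher), and *Pth1r*, the receptor of parathyroid hormone, 445, 488 and 660.0 CPM against 0, 35.7 and 127 CPM (3.60 ± 0.32). *Cyp24a1*, which degrades active vitamin D, had 41.7, 50.6 and 43.6 CPM in wild-type kidney and 102, 469 and 405 CPM in *Scx*-/- kidney and 0 in liver (at least 92.7-fold higher). Replicates 2 and 3 of the *Scx*-/- kidney stood far above the other 4 kidney libraries for this gene.

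**Figure D2:**
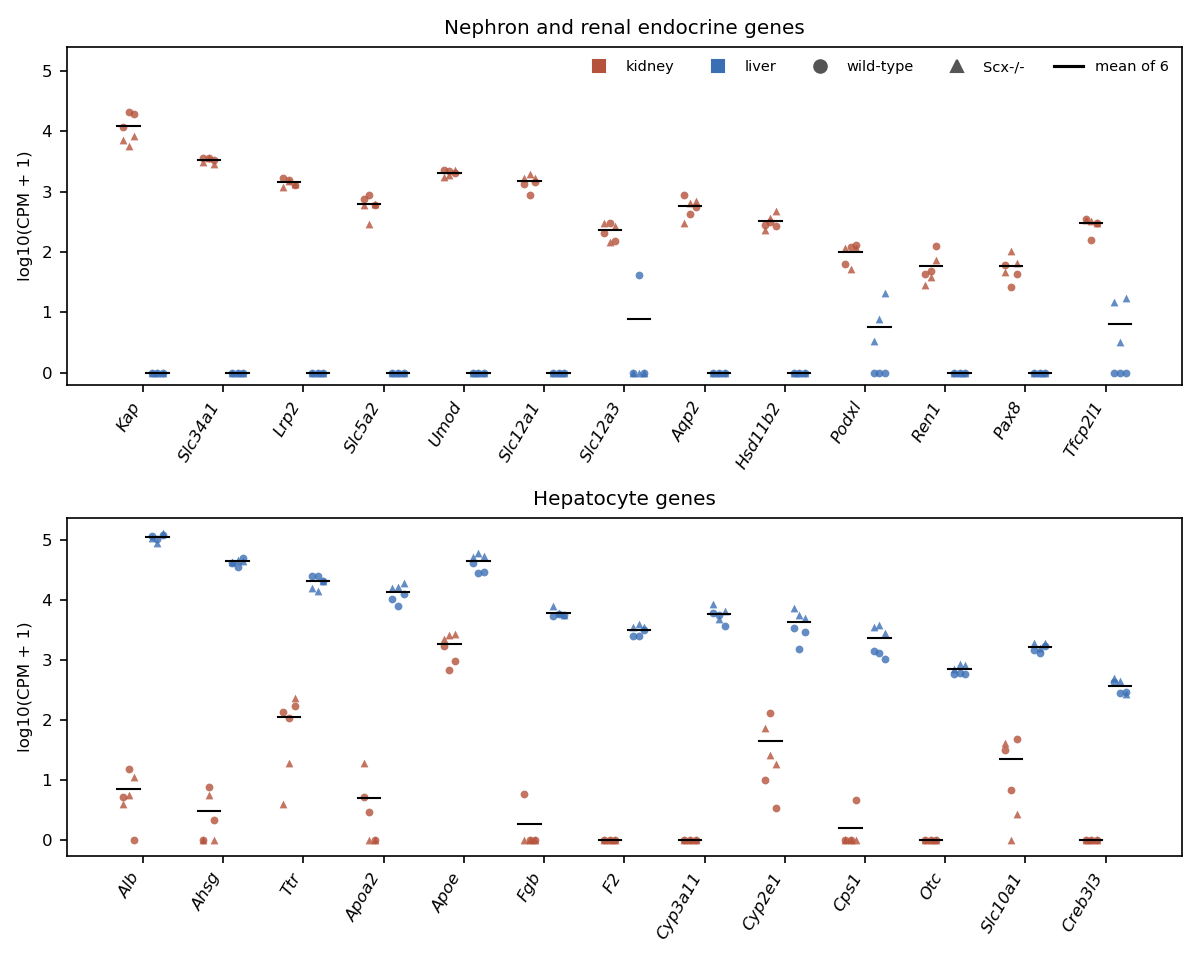
Level of 26 genes in each of the 12 libraries as log10(CPM + 1), with kidney in red and liver in blue, wild-type libraries as circles, Scx-/- libraries as triangles and the mean of 6 libraries as a bar. The upper panel holds nephron, endocrine and renal factor genes, of which all but Slc12a3, Podxl and Tfcp2l1 were at 0 in every liver library, and the lower panel hepatocyte genes, of which F2, Cyp3a11, Otc and Creb3l3 were at 0 in every kidney library while Apoe and Ttr had kidney counts in every library.

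Secreted plasma proteins made up 17.8 to 22.9% of counts in liver libraries and 0.0784 to 0.152% in kidney libraries. All 26 list members passed the threshold, 25 higher in liver and 1 higher in kidney, and the median log2 fold change was -10.28, or -9.98 with genes at 0 at their bound. *Alb* (albumin), which carries fatty acids and holds water in plasma, had 89347, 112034 and 129103 CPM in liver and 0, 4.41 and 14.6 CPM in kidney, a log2 fold change of -14.02 ± 0.68. *Ahsg* (fetuin A), an inhibitor of calcification, had 35689.5, 43802 and 50978 CPM in liver against 0, 0.606 and 6.81 CPM in kidney (-14.11 ± 0.71), and *Trf* (transferrin), the iron carrier, 15596, 18818 and 20851 CPM against 4.65, 27.8 and 52.2 CPM (-9.47 ± 0.51). *Ttr* (transthyretin), a carrier of thyroid hormone and retinol binding protein, had 14208, 20579 and 25565 CPM in liver and 3.07, 120.1 and 236 CPM in kidney (-7.51 ± 0.84). For all 4 the lowest liver library lay far above the highest kidney library, and *Ttr*, whose call was lost with the knockout libraries alone, had the widest range of the 4 among kidney libraries. Hepatocyte markers were at most 0.0338% of counts in a kidney library. Their median share was 0.0197% in kidney, 0.0997% in heart, 0.0828% in stomach and 0.000936% in muscle. Whether such counts came from the kidney cells themselves was not tested. The exception was *Serpina6*, which encodes the carrier of glucocorticoids in plasma, with 172, 489.6 and 928 CPM in kidney against 50.4, 106 and 115 CPM in liver (2.52 ± 0.29, adjusted p = 2.55e-16). Every kidney library lay above every liver library for it, and its next highest mean among the other 14 tissues was 3.94 CPM, in bladder.

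Apolipoproteins and genes of lipoprotein assembly were higher in liver in 15 of 15 tested, with a median log2 fold change of -7.85. *Apoa1* and *Apoa2*, the main proteins of high density lipoprotein, had 9555, 15462 and 19307 CPM and 7927, 14333 and 18977 CPM in liver and at most 14.6 and 18.4 CPM in kidney. *Apoe*, the ligand that clears lipoprotein remnants, was less one-sided, with 28289, 47390.3 and 61059 CPM in liver against 678, 2005 and 2690.0 CPM in kidney (-4.67 ± 0.13, 25.5-fold higher in liver). *Apoa5*, an activator of plasma triglyceride breakdown, had 1401, 2051 and 3791 CPM in liver and 0 in kidney (at least 3629-fold higher). *Sepp1* (selenoprotein P), which carries selenium from liver to other organs, had 7538, 10317 and 10571 CPM in liver against 576, 828 and 1223 CPM in kidney (-3.55 ± 0.16), while *Gpx3*, the selenium enzyme of plasma that the kidney makes, had 16786, 28077 and 31722 CPM in kidney against 0, 14.1 and 45.8 CPM in liver (10.59 ± 0.88). The pair thus stood on opposite sides, each without overlap between the organs.

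Of 29 coagulation and complement genes tested, 27 were higher in liver, 0 in kidney and 2 (*F13b* and *C6*) did not pass, and 11 were at 0 in all kidney libraries. *Fga*, *Fgb* and *Fgg*, the 3 chains of fibrinogen, had medians of 5616, 5825 and 5329.7 CPM in liver and at most 23.2, 5 and 11.7 CPM in kidney. *F2* (prothrombin) had 2485, 3324 and 4019 CPM in liver and 0 in kidney (at least 4833-fold higher), and *Serpinc1* (antithrombin), its inhibitor, 3228, 4275 and 4569 CPM and 0 (at least 6068-fold higher). *C3*, the central protein of complement, had 4278, 5728 and 6366 CPM in liver against 0, 1.39 and 18.2 CPM in kidney (-10.31 ± 0.82). *F13b*, the carrier subunit of factor XIII, was expressed in both organs at 127, 271 and 328 CPM in liver and 93.4, 115 and 218 CPM in kidney, a log2 fold change of -0.98 ± 0.32 that stayed under the 2-fold threshold (adjusted p = 0.0198).

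Genes of bile acids, urea and drug metabolism stood almost wholly on the liver side. For bile acid synthesis and transport 16 of 18 members were higher in liver and 0 in kidney, among them *Cyp7a1*, the rate-limiting enzyme (49.8, 82.8 and 309 CPM in liver, 0 in kidney), *Slc10a1*, the uptake carrier NTCP (1298, 1665 and 1957 CPM against 0, 18.3 and 48.4 CPM), and *Abcb11*, the bile salt export pump (400.3, 543 and 750.0 CPM in liver and 0 in kidney, at least 838-fold higher). *Slc10a1* was not called among the knockout libraries alone. For the urea cycle and amino acid breakdown 20 of 23 were higher in liver and 0 in kidney, with a median log2 fold change of -5.6. *Cps1*, the first step of the cycle, had 1054, 2105 and 3789 CPM in liver and counts in 1 kidney library (3.63 CPM), and *Otc*, the step after it, had 588, 660.2 and 866 CPM in liver and 0 in kidney (at least 1060.0-fold higher in liver). *Ass1*, the step that kidney also uses to make arginine, had 470.0, 573 and 863 CPM in kidney against 703, 1389.5 and 2017 CPM in liver (-1.13 ± 0.21), with overlap, and its call was lost with library totals. *Asl*, the step after it, had 4.84, 9.8 and 24.6 CPM in kidney and 0, 33.1 and 73.5 CPM in liver and did not pass (adjusted p = 0.297). *Tat* and *Hpd*, which begin tyrosine breakdown, were at 0 in kidney (at least 2785-fold higher in liver) and at 26.6, 152 and 446 CPM in kidney against 1729, 4616 and 5697 CPM in liver (-4.43 ± 0.77). The calls of *Hpd* and *Ass1* were lost with the wild-type libraries alone, and that of *Ass1* in the fit to all 96 libraries.

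Of 34 drug metabolism genes tested, 29 were higher in liver, 1 in kidney and 4 did not pass, and by symbol 43 of 78 cytochromes P450 were higher in liver and 8 in kidney. *Cyp3a11*, a broad drug oxidase, had 3721, 5847 and 8494 CPM in liver and 0 in kidney (at least 8882-fold higher), and *Cyp2e1*, which oxidizes ethanol and small solvents, 1522, 4212 and 7425 CPM in liver against 2.42, 21.5 and 132 CPM in kidney (-6.50 ± 0.98), a call lost with the wild-type libraries alone. *Cyp2j5*, an arachidonic acid epoxygenase, was the member higher in kidney, with 660.2, 913 and 1131 CPM against 156, 349.6 and 656 CPM (1.33 ± 0.23). Its call was lost with the wild-type libraries alone and in the fit to all 96 libraries. *Cyp4a10* and *Cyp4a14*, the fatty acid hydroxylases, had 527 to 1292 CPM and 232 to 929.6 CPM in kidney and 551 to 1661 CPM and 468 to 1922 CPM in liver, with log2 fold changes of -0.15 ± 0.21 and -0.58 ± 0.22 that did not pass. Genes such as the *Cyp2c*, *Ugt2b*, *Mup* and *Serpina1* copies are nearly identical in sequence, so their counts could be split among copies and are uncertain individually.

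**Figure D3:**
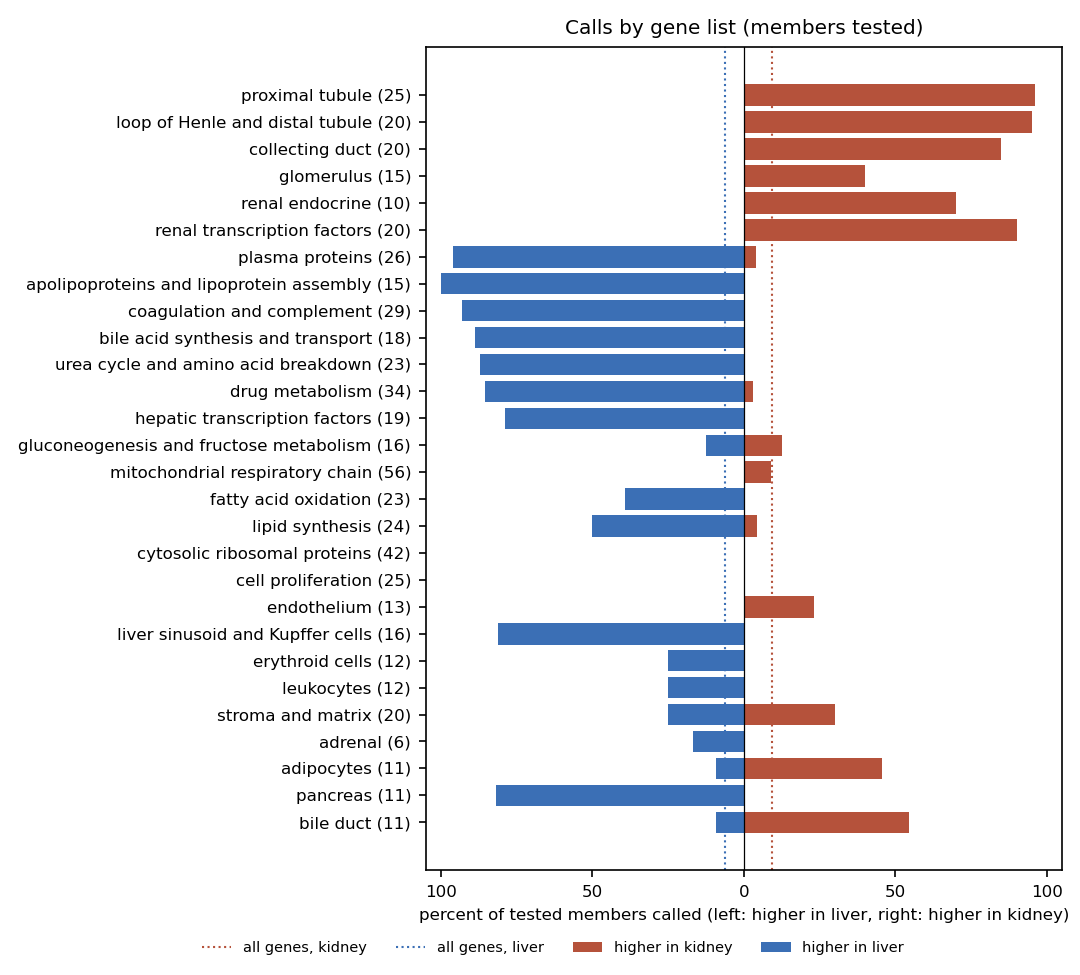
Share of the tested members of each gene list (number in brackets) that passed the threshold, drawn to the right where kidney was higher (red) and to the left where liver was higher (blue), in percent. Dotted lines mark the shares over all 16608 genes, 9.42% for kidney and 6.15% for liver, and the 6 renal lists reach 40 to 96% on the right while ribosomal proteins and cell proliferation have no call on either side.

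Membrane carriers and channels fell on both sides. By symbol, 82 of 299 solute carriers were higher in kidney and 29 in liver, 8 of 18 claudins in kidney and 4 in liver, and 5 of 11 aquaporins in kidney and 2 in liver, beside 60.5% of the calls over all genes in kidney. Among the aquaporins, *Aqp9*, a channel for glycerol and water, had 142, 458 and 554 CPM in liver and 0 in kidney (at least 619-fold higher in liver), the reverse of *Aqp2*. *Slco1b2*, which takes up organic anions from portal blood, had 405, 509 and 796 CPM in liver and 0 in kidney (at least 797-fold higher), and *Slc22a2* (OCT2), the cation carrier of tubules, 62.7, 148 and 369 CPM in kidney and 0 in liver (at least 147-fold higher).

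Close levels were found among genes of tasks known from both organs and among all genes. Genes were counted as close when the mean was at least 100 CPM in both organs and the 95% interval of the log2 fold change lay within -1 to 1, which held for 383 of the 882 genes at that level. The counts of close genes in lists are out of all members tested, at any level, and were not tested against that share. Of 16 gluconeogenesis and fructose genes 2 passed as higher in kidney and 2 in liver, and 9 were close. *Pck1*, the control step of gluconeogenesis, had 1106, 1795 and 4811 CPM in kidney and 2219, 3310.1 and 4551 CPM in liver. Its log2 fold change was -0.55 ± 0.16 (adjusted p = 0.00805), a difference toward liver under 2-fold. With library totals it was 0.11, beside medians over all genes of 0.59 with TMM and 1.11 with library totals. *Fbp1* and *G6pc*, the last steps before free glucose, had log2 fold changes of -0.52 ± 0.21 (adjusted p = 0.074) and -0.52 ± 0.23 (adjusted p = 0.118), both with overlap. *Gpt*, the alanine aminotransferase that feeds the path in liver, had 348, 487 and 708 CPM in liver against 0, 9.63 and 16.5 CPM in kidney (-5.65 ± 0.36), and *Gk*, the glycerol kinase, 355, 393 and 482 CPM in kidney against 100.2, 126 and 216 CPM in liver (1.57 ± 0.29). The call of *Gk* was lost in the fit to all 96 libraries. The median log2 fold change of the list was -0.31 with TMM and 0.33 with library totals, and less the median of all genes it was -0.90 with TMM, -0.91 with RLE, -0.78 with library totals and -0.67 with DESeq2.

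Mitochondrial respiratory chain genes held 3.64 to 4.1% of kidney counts and 1.58 to 1.84% of liver counts. By the test 5 of 56 passed as higher in kidney and 0 in liver, beside 9.42% and 6.15% of all genes. Of the 56, 24 were close, a share near that given above for all genes at 100 CPM or more. The median log2 fold change of 0.5 also lay near the 0.59 of all genes. With library totals 35 passed and the median was 1.14, beside 1.11 over all genes, and 4 of the 5 calls were lost without at least 1 of the libraries. *Atp5a1*, a subunit of ATP synthase, had 2670.3, 2728 and 2897 CPM in kidney against 1004, 1558 and 1979.8 CPM in liver, without overlap but under 2-fold (0.88 ± 0.17). *Ndufb8*, a subunit of complex I, had 351, 601 and 733 CPM against 177, 244 and 305 CPM (1.22 ± 0.26) and kept its call when any 1 library was left out, but not with the knockout libraries alone or in the fit to all 96 libraries. Fatty acid oxidation leaned to liver, with 9 of 23 members higher there and 0 in kidney. *Cat* (catalase) of peroxisomes was higher in liver, with 1822, 2378 and 3141 CPM against 511, 709 and 764 CPM in kidney (-1.86 ± 0.19). *Cpt1a*, the entry step of mitochondria, did not pass (-0.44 ± 0.28, adjusted p = 0.321).

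Lipid synthesis had 12 of 24 members higher in liver and 1 in kidney, and 6 in liver with library totals. *Thrsp*, a promoter of fat synthesis, had 50.8, 138 and 555 CPM in liver against 0, 16.5 and 35 CPM in kidney (-3.36 ± 0.46), and *Sc5d*, a late step of cholesterol synthesis, 76.1, 250.4 and 764 CPM against 0, 22.3 and 40.9 CPM (-3.77 ± 0.39). The liver values ranged widely for both, and for *Scd1*, the desaturase, they ran from 24.5 to 1518 CPM against 0 to 86 CPM in kidney without a call (adjusted p = 0.0879). Of 42 cytosolic ribosomal proteins 0 passed by edgeR, 0 over 2-fold at an unadjusted p under 0.05, 0 by DESeq2 and 2 with library totals, and 16 were close, with a median log2 fold change of -0.04 (0.61 with library totals). Of 25 cell proliferation genes 0 passed by edgeR, 0 at an unadjusted p, 0 by DESeq2 and 0 with library totals. *Rplp1* had 724, 1007 and 1262 CPM in kidney and 609.8, 1036 and 1304 CPM in liver (-0.02 ± 0.20), and *Actb* 1358, 1698 and 1967 CPM and 1725, 2021 and 2369 CPM (-0.25 ± 0.18).

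Related genes that do like work were compared across the organs in 16 pairs, of which 6 are plotted. *Pkm* and *Pklr*, the pyruvate kinases, had log2 fold changes of 3.12 ± 0.32 and -3.53 ± 0.90. *Ldhb*, the heart type subunit of lactate dehydrogenase, had 1632, 1978 and 2197 CPM in kidney against 4.08, 19.1 and 39.1 CPM in liver (6.60 ± 0.27), while *Ldha* had 379, 784 and 1198 CPM against 1201, 1389 and 1523 CPM and stayed under 2-fold (-0.82 ± 0.20). *Hsd11b1*, which reactivates glucocorticoid, had 601, 1032 and 1464 CPM in liver against 32.5, 101 and 126 CPM in kidney (-3.44 ± 0.26), opposite to *Hsd11b2* of the collecting duct. *Hao1*, the glycolate oxidase, had 197, 329.8 and 413 CPM in liver and 0 in kidney (at least 448-fold higher in liver), and *Hao2*, which oxidizes longer hydroxy acids, 303, 501 and 667 CPM in kidney against 84.6, 174 and 229 CPM in liver (1.49 ± 0.28). *Acsm2* and *Acsm1*, medium-chain acyl-CoA synthetases, again split, with *Acsm2* at 389, 635 and 2090.4 CPM in kidney and 0 in liver (at least 760.4-fold higher) and *Acsm1* at -2.41 ± 0.34. *Agxt*, which removes glyoxylate in liver peroxisomes, was at least 1908-fold higher in liver, and *Agxt2* did not pass (-0.99 ± 0.41, adjusted p = 0.0787). *Gamt*, the second step of creatine synthesis, had 550.3, 676 and 935 CPM in liver against 25.3, 35.9 and 77.5 CPM in kidney (-4.00 ± 0.30), and *Gatm*, the first step, was listed at 0 in all libraries, so that pair could not be compared. In the fit to all 96 libraries the calls of *Pklr*, *Hao2* and *Acsm1* were lost, that of *Pklr* also with the knockout libraries alone and that of *Hao2* with the wild-type libraries alone.

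**Figure D4:**
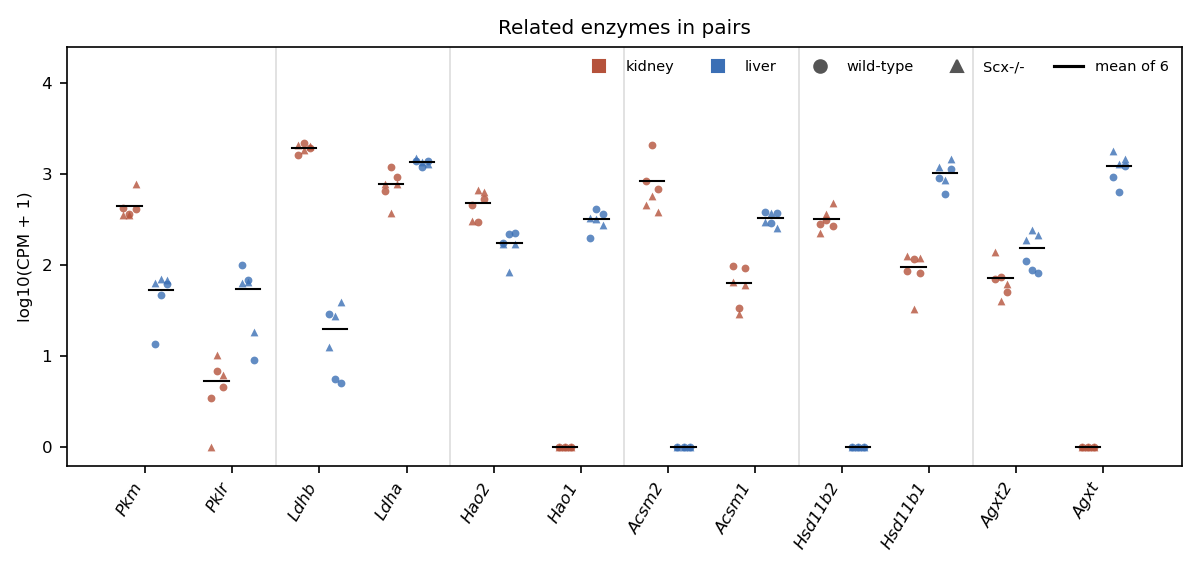
Level of 6 pairs of related genes in each of the 12 libraries as log10(CPM + 1), kidney in red and liver in blue, wild-type as circles, Scx-/- as triangles and the mean of 6 libraries as a bar. In the pairs Pkm and Pklr, Hao2 and Hao1, Acsm2 and Acsm1, and Hsd11b2 and Hsd11b1 the first gene was higher in kidney and the second in liver, while Ldha and Agxt2 did not pass.

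Genes of other cells also differed. Of 16 markers of liver sinusoid endothelium and Kupffer cells, the resident macrophages, 13 were higher in liver and 0 in kidney, among them *Stab2*, a scavenger receptor of sinusoids (94.7, 151 and 216 CPM against 0 to 9.3 CPM), and *Clec4f*, a lectin of Kupffer cells (65.4, 124 and 220.1 CPM and 0, at least 206-fold higher). General endothelial markers passed in 3 of 13, all higher in kidney, with 1 under RLE scaling and 8 with library totals, and *Emcn* (endomucin) had 30.7, 102 and 114 CPM in kidney against 0 to 10.2 CPM in liver (5.61 ± 0.86). Of 20 stromal and matrix genes 6 were higher in kidney and 5 in liver. *Col4a1*, a collagen of basement membranes, had 589.8, 807 and 1079 CPM in kidney against 56.9, 138 and 232 CPM in liver (2.59 ± 0.26), and *Fn1* (fibronectin), which hepatocytes also secrete, 1032, 1593 and 2119.8 CPM in liver against 43, 87.7 and 208 CPM in kidney (-3.93 ± 0.24). Epithelial markers of bile ducts were higher in kidney for 6 of 11 and in liver for 1 (*Krt18*), and *Spp1* (osteopontin), which kidney tubules make too, had 1027, 1334 and 1932 CPM in kidney against 82.5, 99.4 and 148 CPM in liver (3.74 ± 0.25). Erythroid and leukocyte lists had 3 of 12 members each higher in liver and 0 in kidney, and with library totals 1 in liver and 1 in kidney for the erythroid list and 2 and 1 for the leukocyte list.

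Markers of neighbouring organs were also counted, and levels in the other tissues are given beside them as means on library totals. Libraries of 2 of those tissues went against their labels, since the libraries labelled adipose had 1.66 CPM of the adipocyte gene *Adipoq* and 136507 CPM of *Ctrb1* (chymotrypsinogen, of the pancreas), and those labelled vascular had 895 CPM of *Adipoq* and 3484 CPM of *Ucp1*, the heat-making protein of brown fat. Of 11 pancreas genes tested 9 were higher in liver. *Cela1*, an elastase, did not pass and had 165, 258 and 398 CPM in kidney against 71.7, 124 and 197 CPM in liver (0.98 ± 0.33), and the other 10 genes held 0.0224 to 0.0681% of counts in liver and 0 to 0.00215% in kidney. *Ctrb1* had 69.1, 133 and 302 CPM in liver and 0 to 16.3 CPM in kidney (-4.60 ± 0.56). On library totals the mean of *Ctrb1* was 122 CPM in liver, beside a median of 82.9 CPM over the 14 other tissues. For *Cel* these were 35.9 and 16.1 CPM, and for *Cpb1* 27.3 and 56.2 CPM, so a trace of these genes was not particular to liver. *Ucp1* had 0, 17.3 and 84.8 CPM in kidney and 0 in liver, and 5 of 11 adipocyte genes were higher in kidney and 1 (*Lpl*) in liver. The call of *Ucp1* was lost with the knockout libraries alone, and that of *Lpl* with the wild-type libraries alone and with library totals. Of 6 adrenal genes tested none was higher in kidney, and *Star* and *Chga* did not pass. The part of attached tissue or of material from other libraries in these values was not tested.

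A gene that separates kidney from liver need not be highest there. Of the 1454 genes higher in kidney with a mean of at least 10 CPM, 487 (33.5%) had their highest mean among the 16 tissues in kidney, 172 in lung, 128 in cortex and 116 in intestine. Of the 972 such genes higher in liver, 570 (58.6%) were highest in liver and 93 in intestine. Without the libraries labelled adipose and vascular, 498 (34.3%) were highest in kidney and 595 (61.2%) in liver. *Ace*, the angiotensin converting enzyme, had 111, 142 and 235 CPM in kidney and 808 CPM as its mean in lung, and *Vdr* had its highest mean in intestine (509.8 CPM). *Klk1* was highest in the libraries labelled adipose that held the pancreas genes (5672 CPM) and, without these, in kidney (2647 CPM), and *Apoa1*, highest in liver, had 9402 CPM in intestine, while *Umod*, *Aqp2*, *Slc34a1*, *Alb* and *Cyp3a11* were highest in the organ that they mark. These means over 6 libraries per tissue rest on library totals and are a description without a test.

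Whether the kidney to liver ratio itself differed between wild-type and *Scx*-/- mice was tested as an interaction of tissue and genotype, and 24 of 16608 genes (0.145%) had an adjusted p under 0.05 by edgeR. In 17 of them the ratio of kidney to liver was lower in *Scx*-/- mice and in 7 higher, 17 had a mean under 50 CPM in the organ where they were lower, and that organ was kidney in 18. In replicate order, *Igfbp2*, a binding protein of insulin-like growth factors, had 14.2, 31.1 and 19.4 CPM in wild-type and 7.01, 4.65 and 3.07 CPM in *Scx*-/- kidney, and 617, 188 and 821 CPM in wild-type and 1644, 2124 and 1168 CPM in *Scx*-/- liver. Genotypes did not overlap in either organ and moved in opposite directions, a difference of -3.61 ± 0.57 in the log2 ratio (adjusted p = 3.38e-06). *Cyp2a5*, a P450 that oxidizes coumarin, had 46.1, 0 and 8.17 CPM in wild-type and 215, 574 and 515 CPM in *Scx*-/- liver, with 1 kidney library above 0 (8.34 CPM), a difference of -8.28 ± 1.51. *Lrg1*, a secreted glycoprotein, had 5.84, 39.9 and 4.84 CPM in wild-type kidney and 0 in *Scx*-/- kidney, and 699, 752 and 372 CPM and 784, 557 and 575 CPM in liver (-6.33 ± 1.09). *Gc*, the vitamin D binding protein, had 5.84, 12.6 and 10.9 CPM in wild-type and 43.8, 46.5 and 18.4 CPM in *Scx*-/- kidney, and 5449, 4626 and 3913 CPM and 5655, 4279 and 4668 CPM in liver (1.85 ± 0.36). *Rnr2*, the large ribosomal RNA of mitochondria, was abundant in all libraries and had 31546, 31741 and 26143 CPM in wild-type and 19758, 23264 and 20184 CPM in *Scx*-/- kidney, against 32601, 25602 and 29032 CPM and 39903, 45602 and 41470.0 CPM in liver (-1.04 ± 0.19). DESeq2 called 0 genes (735 at an unadjusted p under 0.05) and edgeR with a filter on low counts 0 (555 unadjusted), against 997 unadjusted for the 24, and the count was 14 without *Scx*-/- liver replicate 2 and 54 without wild-type liver replicate 1. Depth differed between genotypes in opposite directions in the organs, and with all libraries thinned to 242429 counts 5 genes passed. At that equal total count, which leaves the makeup of the libraries unequal between organs, *Igfbp2* (-4.15, adjusted p = 9.68e-06) and *Rnr2* (-0.93, adjusted p = 0.00398) passed by edgeR, while *Lrg1* (adjusted p = 0.227), *Cyp2a5* (adjusted p = 0.93) and *Gc* (1.98, adjusted p = 0.127) did not.

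**Figure D5:**
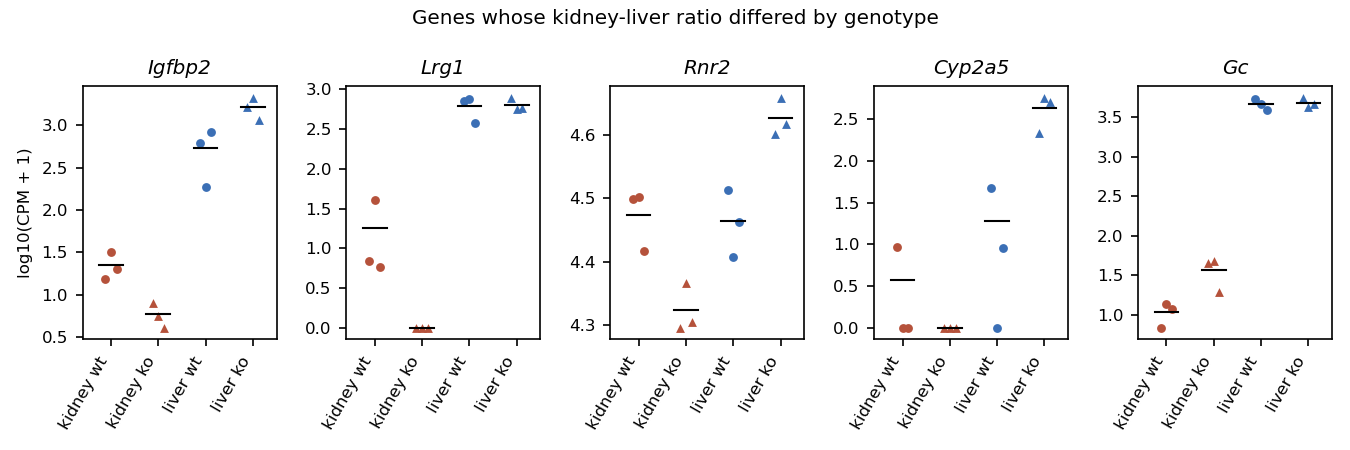
Level of the 5 genes with the smallest adjusted p for the interaction of tissue and genotype, as log10(CPM + 1) in each library of wild-type (wt, circles) and Scx-/- (ko, triangles) kidney and liver, with the mean of 3 libraries as a bar and a separate y axis for each gene. Igfbp2 was lower in Scx-/- than in wild-type kidney and higher in Scx-/- than in wild-type liver, Lrg1 was at 0 in all Scx-/- kidney libraries, and Cyp2a5 was higher in all Scx-/- liver libraries.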

How the data were processed

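Bulk RNA of 96 libraries was measured by a multiplexed method, in which samples were barcoded at reverse transcription and then pooled for library construction. Reads had been aligned by the authors with Bowtie2 (default settings, mm10) and assigned to genes by HTSeq, and the deposited values are raw counts of 41575 gene symbols. Tool versions, annotation, strand and molecular identifiers were not given in the sources used here, so overlapping genes and near-identical copies could share reads. The series record names Smart-seq2 as the base of the method, and the study describes reads enriched at transcript ends.

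From these counts, the 12 kidney and liver libraries were fitted with edgeR 4.0.16 (R 4.3.3) using TMM factors, robust glmQLFit and glmQLFTest, with tissue and genotype as terms. The 24967 genes at 0 in all 12 were removed. A call is an adjusted p under 0.05 (Benjamini-Hochberg over all genes tested) and an absolute log2 fold change over 1, and the interaction was called by adjusted p. CPM uses TMM-scaled totals, shares and the levels over 16 tissues use library totals, and correlations log2(CPM + 1). Bounds use 3 counts summed over the group at 0 and cover counting error only. The fits were tested on simulated data with known changes, and many of the smaller changes were not called.

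Members and lists were chosen with earlier results of these data known, while the families by symbol, the promoter letters, a fit with *Xist* as a covariate and the leaving out of the libraries labelled adipose and vascular were chosen after values were seen. Genes named are the 12 largest called changes per direction at 100 CPM or more without overlap, the 10 most abundant genes per organ, the 4 most abundant members and called exceptions of each list, 16 pairs of related genes, *Scx*, the 5 smallest interaction p-values and the 8 most abundant close genes. Some are not reported here, and other list members were named after their values were seen. Libraries of a group differed beyond sampling noise (the chi-square over its degrees of freedom was 8.11 or more in 12 pairs). Promoters and coordinates come from RefSeq and GRCm38 annotation, and 11697 tested genes matched a promoter by symbol. Alternatives were DESeq2 1.42.0, RLE factors, library totals, filterByExpr, all 96 libraries, each genotype alone, libraries thinned to 242429 counts, the replicate number as a block, each library left out and an unadjusted p.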

Additional observations from a re-analysis of the deposited data

Results flagged for a closer look

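The kidney to liver ratio of 5 named genes differed between wild-type and *Scx*-/- mice by the interaction of tissue and genotype in edgeR's quasi-likelihood test. None of the 5 passed by DESeq2 (adjusted p of 0.0661 to 0.594) or with filterByExpr (adjusted p of 0.116 to 0.577). With all libraries thinned to 1 total count *Igfbp2* and *Rnr2* passed by edgeR (adjusted p = 9.68e-06 and 0.00398), and *Lrg1*, *Cyp2a5* and *Gc* did not (adjusted p = 0.227, 0.93 and 0.127). As the difference of the log2 ratio, *Scx*-/- minus wild-type, the 5 values over all counts were -3.61 ± 0.57 for *Igfbp2* (adjusted p = 3.38e-06), -6.33 ± 1.09 for *Lrg1* (adjusted p = 5.24e-05), -1.04 ± 0.19 for *Rnr2* (adjusted p = 0.000185), -8.28 ± 1.51 for *Cyp2a5* (adjusted p = 0.000185) and 1.85 ± 0.36 for *Gc* (adjusted p = 0.000938). All 3 *Scx*-/- kidney libraries were at 0 for *Lrg1* and *Cyp2a5*, so the size of these differences depends on the prior count and is no bound. Of the 24 genes called, 22 also passed between the organs, 16 higher in liver and 6 in kidney, and 9 were at 0 in all libraries of 1 genotype in the lower organ.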

How the results depend on the processing

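The count of 2587 called genes (1565 higher in kidney, 1022 in liver) was 2793 by DESeq2, 2585 with RLE factors, 2247 with filterByExpr, 2125 with all 96 libraries, 2365 with thinned libraries, 2474 with *Xist* as a covariate, and 2221 to 2493 without 1 library. It was 1499 (660 higher in kidney and 839 in liver, a turned majority) with the knockout libraries alone, 1577 (856 higher in kidney) with the wild-type libraries alone and 4205 (2717 higher in kidney) with an unadjusted p, and with library totals 3055 genes were higher in kidney. Each alternative but the unadjusted p, whose overlap was not counted, shared 52.4 to 97.6% of the calls, and none of the shared calls was in the opposite direction. With the replicate number as a block 2116 genes passed (1255 in kidney, 861 in liver) and 20 for the interaction. Deviations of same-numbered kidney and liver libraries from their group means had r of 0.0299 to 0.0656 in 6 pairs. Libraries of different numbers had r of -0.0436 to 0.0075, and every library correlated best with its own number in the other organ. *Xist* was also found in the same numbers of both organs. These are hints from the data and not from the design. No label stated that a number marks 1 mouse, so the numbers were not taken as pairs.

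The 24 genes of the interaction became 0 with DESeq2, 0 with filterByExpr, 14 with library totals, 5 with thinned libraries and 14 to 54 without 1 library, lowest without *Scx*-/- liver replicate 2 and highest without wild-type liver replicate 1, and the cause was not tested. Close genes fell from 383 to 7 with the interval held within 0.5, a stricter limit by construction. Of the glomerular members 3 passed with the knockout libraries alone, in place of 6. Among 124 named genes that were called, 1 (DESeq2, RLE factors) to 16 (wild-type libraries alone) lost the call under an alternative that lost any, and none was reversed. At this depth a low gene without a call is not shown to be alike in both organs.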
